A study of Mus musculus with 8 samples.

Results

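The genes described here are 10 components of the NF-kB system, measured by RNA-seq in Paneth cells sorted from mouse small intestine. They are the subunit genes Nfkb1, Nfkb2, Rela and Relb, the inhibitor and cofactor genes Nfkbia, Nfkbiz and Bcl3, the ubiquitin enzyme genes Tnfaip3 and Birc3, and the kinase gene Ikbkb. Members were the rows of the count table whose Ensembl ID mapped to one of these symbols in GENCODE M39. All 10 had a row among the 55414 IDs of the table, and all 10 were among the 11929 genes that passed the filter on low counts.

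The study compared 4 libraries from transgenic mice (TG, genotype DT TG, with diphtheria toxin expressed in Paneth cells) with 4 libraries from wild type mice (WT). The series is titled as a profile of purified cells after depletion of mature Paneth cells, so that the TG values describe the cells that the sort still collected. Diphtheria toxin stops protein synthesis by inactivating an elongation factor of the ribosome. Paneth cells were collected by FACS from a single cell suspension of the small intestine in both groups, and stranded poly(A) libraries were sequenced. The study's methods name C57BL/6J as the strain, while neither the promoter that drives the toxin nor the age of the mice is given in the sources used here. Paneth cell samples of the study are in general described as taken from individual mice, while the labels name no mouse for a library, and the p-values below measure the spread between these libraries.

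NF-kB transcription factors are dimers of Rel proteins that IkB proteins hold in the cytoplasm. In the canonical pathway, receptors for TNF, interleukin-1 or microbial products activate an IkB kinase complex, IkB is degraded, and dimers that contain RelA enter the nucleus. In the noncanonical pathway the product of Nfkb2 is processed and pairs with RelB, and many NF-kB target genes, among them Nfkbia, Tnfaip3, Nfkb2, Relb and Birc3, encode parts of the pathway itself, so that their mRNA is often read as a trace of its activity. In the intestinal epithelium the pathway is known for its part in cell survival and in the antimicrobial response.

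Total counts were 13107397 to 16218434 per TG library and 13601510 to 15018711 per WT library, and 1 count was worth 0.0564 to 0.0798 CPM (counts scaled to library size). Of 10 Paneth cell marker genes all were tested, with summed CPM of 224588 to 292661 in TG and 213152 to 301601 in WT, which fits the labelled cell type. Of these markers 4 were lower and 0 higher in TG by edgeR, against 9.65% and 8.26% of all tested genes (0 higher at an unadjusted p below 0.05 and by DESeq2 or limma voom), 9 of the 10 had a fitted value below WT, and their median log2 fold change was -0.33. In TG as in WT, Y-linked genes had 897 to 1564 counts in replicates 3 and 4 and 0 counts in replicates 1 and 2, so that each group held 2 libraries of each kind. Mitochondrial genes took 1.15 to 1.53% of the counts in TG and 0.566 to 1.10% in WT, with no overlap. The part of these marker and mitochondrial differences in the results below was not tested.

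Promoter windows of the members were read first, since several of these genes are themselves NF-kB targets. A RefSeq table on build GRCm38.p6 held 9 windows of 250 bases before to 50 bases after a transcription start for 6 members. These were Nfkbia, Bcl3, Nfkb2, Tnfaip3, Rela and Birc3, while Nfkb1, Relb, Nfkbiz and Ikbkb had no entry. The kappaB consensus, the binding motif of NF-kB dimers, was searched on both strands, and it occurred in 6 of the 9 windows and in 4 of the 6 members. Over all 32851 windows of the table the share was 4.51%. The 4 windows shown are 1 for each member with a match. Both Nfkbia and Bcl3 were lower in TG in the comparison below, while Nfkb2 and Tnfaip3 did not pass the test. Capitals mark the bases that matched.

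Nfkbia (chr12:55492598-55492897, minus strand): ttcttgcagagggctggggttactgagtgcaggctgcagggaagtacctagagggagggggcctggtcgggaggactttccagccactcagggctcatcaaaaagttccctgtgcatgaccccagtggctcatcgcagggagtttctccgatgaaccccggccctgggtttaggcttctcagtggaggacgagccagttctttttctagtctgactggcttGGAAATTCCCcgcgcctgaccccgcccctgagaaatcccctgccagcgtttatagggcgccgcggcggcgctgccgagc
Bcl3 (chr7:19822706-19823005, minus strand): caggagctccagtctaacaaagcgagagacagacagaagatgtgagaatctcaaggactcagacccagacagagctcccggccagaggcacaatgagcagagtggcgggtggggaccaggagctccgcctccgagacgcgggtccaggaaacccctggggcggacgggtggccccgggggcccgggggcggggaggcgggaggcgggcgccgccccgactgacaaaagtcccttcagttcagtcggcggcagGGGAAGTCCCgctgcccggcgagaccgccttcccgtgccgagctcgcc
Nfkb2 (chr19:46304487-46304786, plus strand): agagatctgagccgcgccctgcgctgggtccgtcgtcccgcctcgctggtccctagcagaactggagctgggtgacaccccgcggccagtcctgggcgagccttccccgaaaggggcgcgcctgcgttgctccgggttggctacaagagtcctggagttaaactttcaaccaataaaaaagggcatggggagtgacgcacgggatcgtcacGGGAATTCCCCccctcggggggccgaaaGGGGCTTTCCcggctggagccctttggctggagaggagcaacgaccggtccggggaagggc
Tnfaip3 (chr10:19015361-19015660, minus strand): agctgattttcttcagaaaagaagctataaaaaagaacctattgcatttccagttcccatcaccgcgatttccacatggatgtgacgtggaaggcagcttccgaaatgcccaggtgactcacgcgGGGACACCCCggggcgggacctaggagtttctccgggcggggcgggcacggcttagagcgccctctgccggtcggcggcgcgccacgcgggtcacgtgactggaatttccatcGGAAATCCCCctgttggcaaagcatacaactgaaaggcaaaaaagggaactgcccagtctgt

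In Nfkbia the match began 29 bases before the start, on the strand opposite to the gene. In Bcl3 it began at base 3 counted from the start, again on the opposite strand. The Nfkb2 window held a match on both strands 39 bases before the start, another that overlapped it, and a match 11 bases before the start. The Tnfaip3 window held matches 125 and 12 bases before the start, the second on the opposite strand. The other Nfkb2 windows shared a further match, GGGACTTTCC, because they overlap, and 1 of them held GGGACATTCC on the opposite strand. Rela, Birc3 and the second Tnfaip3 window held no match in these letters. A stricter form of the consensus occurred in 3.07% and a looser form in 11.2% of all windows, and each occurred in 4 of the 6 members. Counted by gene, the consensus occurred in 5.14%, the stricter form in 3.52% and the looser form in 12.6% of all 27025 genes with a window. A match describes the sequence only, and binding was not measured.

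The comparison of TG with WT asked whether the NF-kB genes differed between Paneth cells of mice with and without the toxin. At an edgeR adjusted p below 0.05, 4 of the 10 members were lower in TG (Bcl3, Nfkbiz, Nfkbia and Nfkb1), 1 was higher (Relb), and 5 did not pass the test (Nfkb2, Rela, Tnfaip3, Birc3 and Ikbkb). Of all 11929 genes tested, 17.9% were called, 9.65% as lower and 8.26% as higher. The CPM values of TG and WT lay apart, with no overlap, for 4 of the 10 members and for 22.0% of all tested genes. The median log2 fold change was -0.12 over the members and 0.01 over all tested genes. In sorted bulk samples, fewer cells that express a gene and less of its RNA per cell cannot be told apart.

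**Figure D1:**
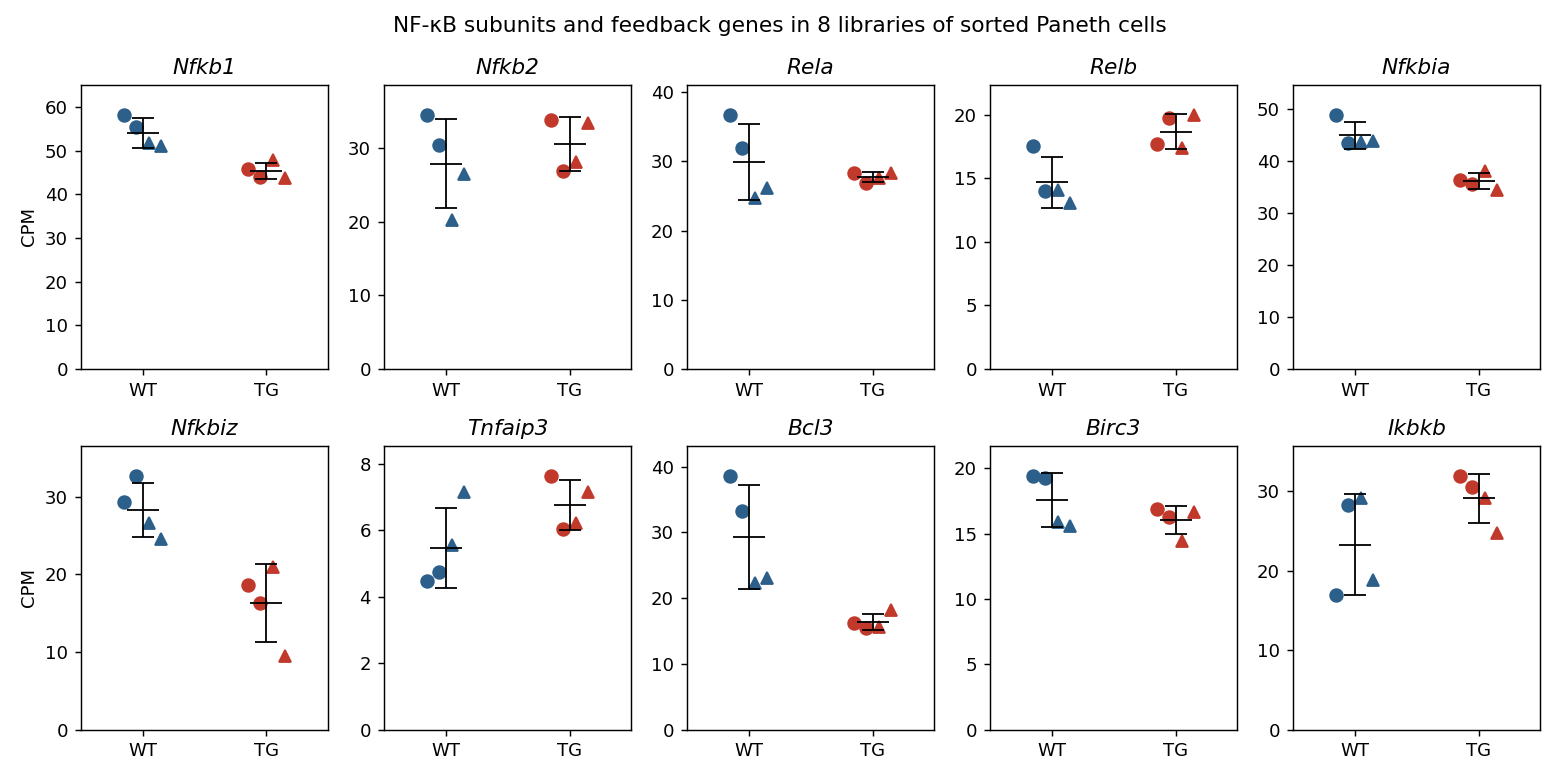
CPM of the 10 members (vertical axis of each panel, linear and starting at 0) in 4 TG and 4 WT libraries. Circles are replicates 1 and 2 and triangles replicates 3 and 4, and bars give mean ± SD. For Bcl3, Nfkbiz, Nfkbia and Nfkb1 every TG library lies below every WT library, and for Bcl3 the WT circles lie above the WT triangles.

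Among the genes that encode DNA-binding subunits, Nfkb1 fell slightly and Relb rose. Nfkb1 (ENSMUSG00000028163, GRCm39 chr3:135290264-135397742, minus strand) encodes the precursor of the p50 subunit, the usual partner of RelA. It was at 45.7, 44.0, 47.8 and 43.7 CPM in TG and at 58.1, 55.5, 51.7 and 51.0 CPM in WT. All TG libraries were below all WT libraries. The means were 45.3 ± 1.88 and 54.1 ± 3.34 CPM (SD, n = 4 each), the log2 fold change was -0.25 ± 0.08 (SE), and the edgeR adjusted p was 0.0429. When total counts replaced the TMM factors, the log2 fold change was -0.14 and the edgeR adjusted p 0.490. When each library was left out in turn it held in 1 of 8 fits, that without WT replicate 3, and in the other 7 the edgeR adjusted p was 0.0520 to 0.115.

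Relb (ENSMUSG00000002983, chr7:19339017-19363425, minus strand), the Rel subunit of the noncanonical pathway, was at 17.7, 19.8, 17.4 and 20.0 CPM in TG. In WT it was at 17.6, 14.0, 14.1 and 13.1 CPM, so that WT replicate 1 reached the TG range and the other WT libraries lay below it. The means were 18.7 ± 1.36 and 14.7 ± 1.97 CPM (SD, n = 4 each), the log2 fold change was 0.35 ± 0.11 (SE), and the edgeR adjusted p was 0.0463. Relb stayed called in 1 of 8 fits with a library left out, that without WT replicate 1, with an edgeR adjusted p of 0.0149. In the other 7 fits it was 0.0582 to 0.130, and with DESeq2 it was 0.0507.

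Rela (ENSMUSG00000024927, chr19:5687493-5698161, plus strand), the transactivating subunit of the canonical pathway, had a narrow range in TG, at 28.3, 26.9, 27.6 and 28.3 CPM. In WT it was at 36.6, 32.0, 24.7 and 26.1 CPM. The WT libraries lay on both sides of the TG libraries, replicates 1 and 2 above and replicates 3 and 4 below. The log2 fold change was -0.10 ± 0.12 (SE), at an edgeR adjusted p of 0.568. The difference had the other sign, with a log2 fold change of 0.14 where Y-linked counts were present, 0.022 when total counts replaced the TMM factors, and 0.0067 without WT replicate 1.

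Nfkb2 (ENSMUSG00000025225, chr19:46292759-46303812, plus strand) encodes the precursor that pairs with RelB after processing. It was at 33.8, 26.9, 28.0 and 33.4 CPM in TG and at 34.4, 30.3, 20.2 and 26.5 CPM in WT, and the ranges overlapped. The log2 fold change was 0.13 ± 0.14 (SE), at an edgeR adjusted p of 0.547. It was -0.094 in the libraries without Y-linked counts and 0.40 in those with them. Exons of Nfkb2 overlap those of Psd and 4833438C02Rik on the opposite strand, with 74 and 722 counts over the 8 libraries. The latter had a log2 fold change of 0.46 (edgeR adjusted p = 0.0712). Nfkbia and Bcl3 overlap Gm36634 and Gm16175 in the same way, with 8 and 0 counts in all. Nfkb1, Rela, Tnfaip3 and Ikbkb overlap opposite-strand genes in 270, 185, 110 and 519 bases. Those genes had no row in the count table. Whether the counting behind this table used strand is not stated for it.

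Each of the 3 members of the IkB family, inhibitors and cofactors, was lower in TG. Bcl3 (ENSMUSG00000053175, chr7:19541553-19557570, minus strand) encodes a nuclear IkB protein that binds p50 and p52 homodimers and acts as a coregulator. It was at 16.2, 15.5, 15.7 and 18.2 CPM in TG and at 38.6, 33.3, 22.3 and 23.0 CPM in WT. Every TG library was below every WT library, and WT replicates 1 and 2 were above WT replicates 3 and 4. The means were 16.4 ± 1.24 and 29.3 ± 7.94 CPM (SD, n = 4 each), the log2 fold change was -0.83 ± 0.16 (SE), and the edgeR adjusted p was 0.00538, the smallest of the 10 members. It stayed called in all 8 fits with a library left out, with log2 fold changes of -0.95 to -0.68 and edgeR adjusted p of 0.00277 to 0.0238.

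Bcl3 was also read separately in the libraries with and without Y-linked counts. Without them, the means were 15.9 CPM in TG and 35.9 CPM in WT, with a log2 fold change of -1.18 and an edgeR adjusted p of 0.000854. With them, the means were 17.0 and 22.7 CPM, with a log2 fold change of -0.42 and an edgeR adjusted p of 0.155. The difference between the log2 fold changes was 0.75 ± 0.20 (SE) in an edgeR interaction test, with a p of 0.00237 that became 0.507 when adjusted over all tested genes. For Rela the same term was 0.45 ± 0.18 (SE), with a p of 0.0253 and an adjusted p of 0.802 in edgeR. None of the 10 members had an adjusted interaction p below 0.05 in edgeR, in a test that called 3 genes in all and gave 684 genes an unadjusted p below 0.05.

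Nfkbiz (ENSMUSG00000035356, chr16:55631738-55659262, minus strand) encodes IkB zeta, an inducible nuclear cofactor of NF-kB in epithelium that responds to interleukin-17 and microbial ligands. It was at 18.6, 16.3, 21.0 and 9.42 CPM in TG and at 29.3, 32.6, 26.6 and 24.5 CPM in WT. The groups did not overlap, and TG replicate 4 was the lowest library. The means were 16.3 ± 4.98 and 28.3 ± 3.50 CPM (SD, n = 4 each), the log2 fold change was -0.78 ± 0.20 (SE), and the edgeR adjusted p was 0.0219. Without TG replicate 2 the edgeR adjusted p was 0.0682, without WT replicate 1 it was 0.0684, and it was 0.0877 when total counts replaced the TMM factors.

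Nfkbia (ENSMUSG00000021025, chr12:55535332-55539432, minus strand) encodes IkB alpha, the inhibitor that is degraded and then made again when the canonical pathway is active. It was at 36.4, 35.5, 38.1 and 34.5 CPM in TG and at 48.8, 43.5, 43.6 and 43.9 CPM in WT. All TG libraries were below all WT libraries, and WT replicate 1 stood above the other WT libraries. The means were 36.1 ± 1.52 and 44.9 ± 2.58 CPM (SD, n = 4 each), the log2 fold change was -0.31 ± 0.08 (SE), and the edgeR adjusted p was 0.0177. It was 0.0551 without TG replicate 1 and 0.0542 without TG replicate 2. With total counts, a scaling that put the median of all genes at a log2 fold change of 0.12, the log2 fold change of Nfkbia was -0.19 and the edgeR adjusted p 0.311.

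The ubiquitin enzymes and the kinase did not pass the test. Tnfaip3 (ENSMUSG00000019850, chr10:18874201-18891405, minus strand) encodes a ubiquitin-editing enzyme that ends NF-kB signalling. It was at 7.62, 6.04, 6.20 and 7.14 CPM in TG and at 4.47, 4.73, 5.55 and 7.14 CPM in WT, from 56 to 122 counts per library. The ranges overlapped through WT replicate 4. The log2 fold change was 0.30 ± 0.18 (SE), at an edgeR adjusted p of 0.247.

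Birc3 (ENSMUSG00000032000, chr9:7845790-7873229, minus strand) encodes a ubiquitin ligase at TNF receptors that also restrains the noncanonical pathway. It was at 16.9, 16.2, 14.4 and 16.6 CPM in TG and at 19.4, 19.3, 15.9 and 15.6 CPM in WT. The ranges overlapped, the log2 fold change was -0.13 ± 0.11 (SE), and the edgeR adjusted p was 0.439. Its close paralog and neighbour Birc2 had a log2 fold change of 0.15 ± 0.15 (SE), and how reads shared by such a pair were counted is not stated for this table.

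Ikbkb (ENSMUSG00000031537, chr8:23148709-23196607, minus strand) encodes the catalytic IkB kinase of the canonical pathway. It was at 31.9, 30.6, 29.2 and 24.8 CPM in TG and at 16.9, 28.2, 29.2 and 18.9 CPM in WT. WT replicates 2 and 3 lay within the TG range and WT replicates 1 and 4 below it. The log2 fold change was 0.32 ± 0.16 (SE), at an edgeR adjusted p of 0.200. It was 0.19 without WT replicate 1, 0.46 in the libraries without Y-linked counts and 0.17 in those with them. With no filter on low counts the edgeR adjusted p was 0.0371.

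Levels of different genes were compared per kb of exon, as CPM divided by the length of all annotated exons. In WT, Nfkbia had the highest level at 23.2 ± 1.33 CPM per kb (SD, n = 4), and Rela followed at 9.12 ± 1.68. Bcl3, Nfkbiz, Nfkb1, Nfkb2 and Relb came next, at 5.59 ± 1.52, 5.03 ± 0.623, 4.21 ± 0.260, 3.52 ± 0.766 and 2.89 ± 0.388 CPM per kb. Each gene of these overlapped with the next over the 4 libraries. Bcl3, from 4.26 CPM per kb, also overlapped Nfkb1, up to 4.52, and Nfkb2, up to 4.36. Bcl3, Nfkbiz and Nfkb1 each lay wholly above Relb. Birc3 was at 2.02 ± 0.238, Ikbkb at 0.959 ± 0.259 and Tnfaip3, the lowest, at 0.563 ± 0.124 CPM per kb, and the last 2 overlapped. With the length of the canonical transcript in place of all exons, a choice made after the data were seen, Nfkbia stayed first at 28.5 CPM per kb and Tnfaip3 last at 0.792, while Bcl3 at 14.5 and Nfkb1 at 11.5 came before Rela at 11.0. By CPM with no division by length, Nfkb1 came first at 54.1 CPM and Nfkbia was in place 2 at 44.9, and 7 of the 10 members took another place. With the canonical length Ikbkb moved most, to 6.49 CPM per kb, since its annotated exons sum to 24325 bases and its canonical transcript to 3591.

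**Figure D2:**
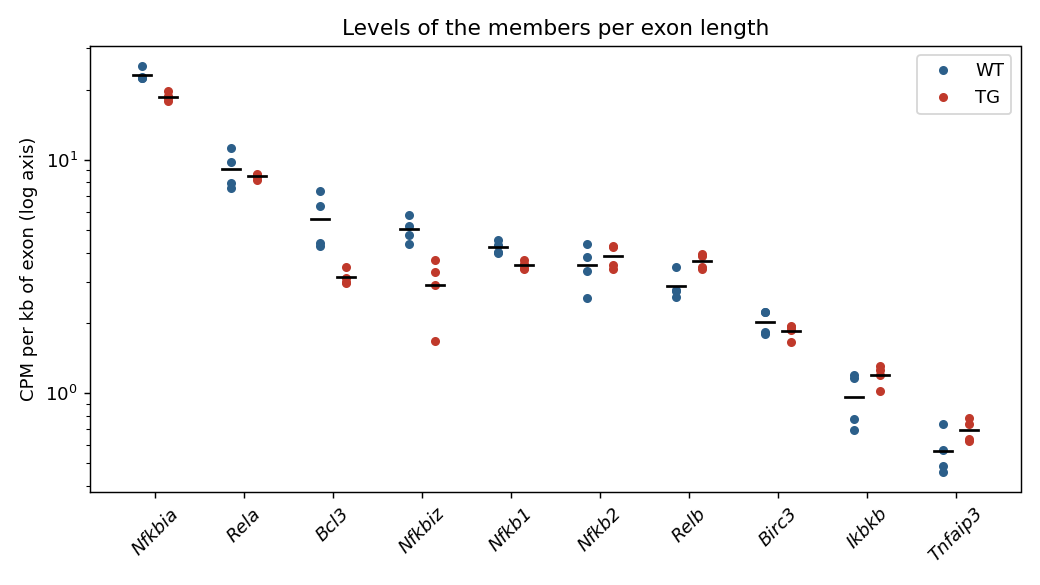
Level of each member in CPM per kb of annotated exon (log axis), in order of the WT mean. Points are libraries of TG and WT and bars are group means. Nfkbia lies highest in both groups, at 18.6 CPM per kb in TG and 23.2 in WT, and Tnfaip3 lowest, at 0.695 and 0.563.

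Ratios of these levels within a library describe the make-up of the system without reference to the scaling of the library. Their size rests on the exon lengths used, which are the same for TG and WT. The Relb to Rela ratio was 0.402, 0.474, 0.405 and 0.454 in TG and 0.309, 0.281, 0.367 and 0.323 in WT. It was higher in every TG library than in any WT library, with means of 0.434 ± 0.0358 and 0.320 ± 0.0359 (SD, n = 4 each). The Bcl3 to Nfkb1 ratio was 0.890 ± 0.0926 in TG and 1.32 ± 0.277 in WT, also with no overlap, since the highest TG library was at 1.02 and the lowest WT library at 1.06. The Nfkb2 to Nfkb1 ratio was 1.10 ± 0.146 and 0.832 ± 0.141, with TG replicate 3 at 0.953 below WT replicate 1 at 0.963. The Nfkbia to Rela ratio, between the inhibitor and the subunit it holds, was 2.20 ± 0.114 and 2.59 ± 0.372 and overlapped. The Nfkbiz to Nfkbia ratio was 0.155 ± 0.0423 in TG and 0.217 ± 0.0287 in WT. It did not overlap, with TG replicate 3 at 0.190 just below WT replicate 4 at 0.193. These ratios combine genes whose differences are given above, and no test was made of them.

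The rest of the pathway was read from lists of known genes. The list of 11 Rel and IkB genes contains 7 of the 10 members, and 1 of its genes was higher and 5 were lower in TG, with a median log2 fold change of -0.25, against 17.9% called in either direction over all tested genes. The fifth lower gene was Nfkbib, which encodes IkB beta, another cytoplasmic inhibitor. It was at 13.6, 14.2, 15.2 and 15.7 CPM in TG and at 19.2, 17.9, 17.2 and 19.7 CPM in WT, with no overlap. Its log2 fold change was -0.33 ± 0.10 (SE) and its edgeR adjusted p 0.0336, and it stayed called in 3 of 8 fits with a library left out, with values of 0.0573 to 0.115 in the other 5. When total counts replaced the TMM factors, the lower calls in this list went from 5 to 1. The other IkB genes of the list, Nfkbie and Nfkbid, were at 14 to 30 and 5 to 23 counts per library and did not pass the test, with log2 fold changes of 0.099 ± 0.32 and -0.095 ± 0.38 (SE) and edgeR adjusted p of 0.861 and 0.889. Rel, which encodes the lymphoid subunit c-Rel, was low in both groups, at 2.91 ± 0.793 CPM in TG against 3.59 ± 1.34 in WT (SD, n = 4 each), and did not pass the test (edgeR adjusted p = 0.457).

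**Figure D3:**
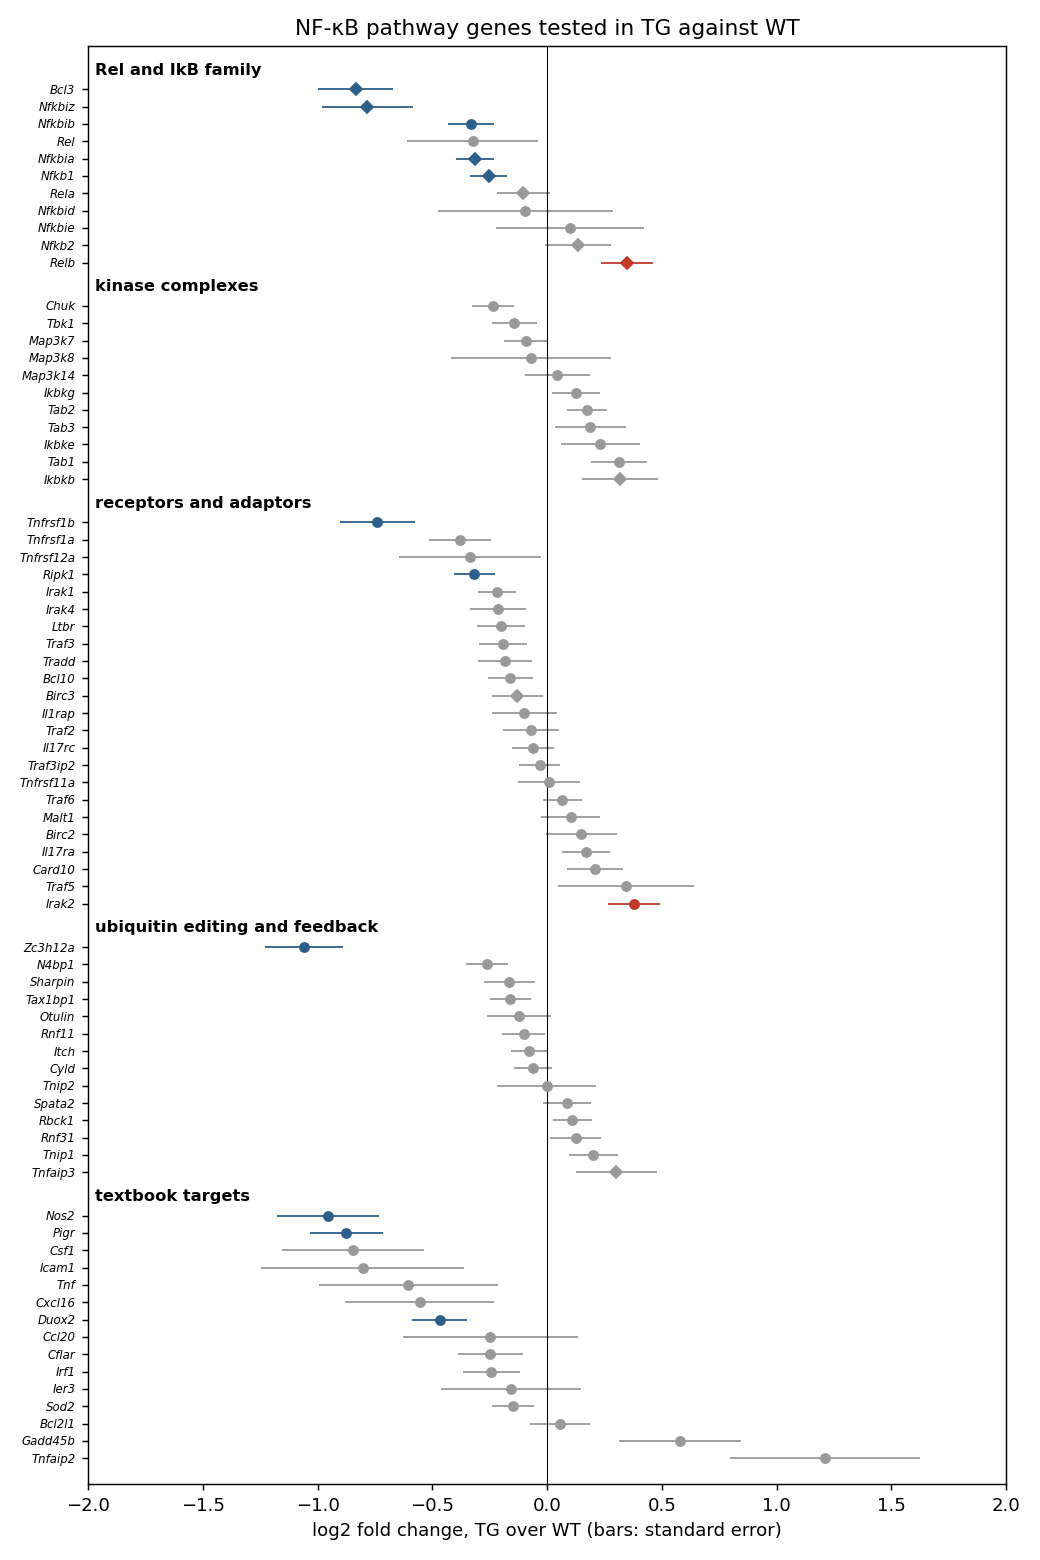
Log2 fold changes (TG over WT) of tested genes in 5 lists of NF-kB pathway genes, with 1 point per gene and members drawn as diamonds. Blue marks genes called lower, red genes called higher and grey genes not called. The Rel and IkB genes hold 5 lower calls and 1 higher call, and the kinase complexes hold none.

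None of the 11 genes of the kinase complexes, which activate the pathway, was called by edgeR. At an unadjusted p below 0.05, 1 was higher and 1 lower, DESeq2 called 0, and limma voom called 1 as higher. The median log2 fold change was 0.13. Of 27 receptor and adaptor genes 23 were tested, 1 was higher and 2 were lower by edgeR, against 8.26% and 9.65% of all tested genes. DESeq2 called 1 higher and 4 lower, limma voom 1 and 2, and at an unadjusted p below 0.05 there were 1 and 4. Tnfrsf1b, the receptor for TNF with the narrower expression, fell from 8.68 ± 1.61 to 5.20 ± 0.209 CPM (SD, n = 4 each), a log2 fold change of -0.74 ± 0.16 (SE), at an edgeR adjusted p of 0.00733. Ripk1, the scaffold kinase below TNF receptors, fell from 38.8 ± 3.64 to 31.1 ± 0.733 CPM, and Irak2, a kinase of interleukin-1 and Toll-like receptor signalling, rose from 10.8 ± 0.947 to 14.0 ± 0.772 CPM. Their log2 fold changes were -0.32 ± 0.09 and 0.38 ± 0.11 (SE). Tnfrsf1b stayed called in all 8 fits with a library left out, Ripk1 in 5 and Irak2 in 3. The values of Tnfrsf1b did not overlap, at 4.91 to 5.37 CPM in TG and 6.54 to 10.1 CPM in WT. With total counts the edgeR adjusted p was 0.0554 for Tnfrsf1b and 0.316 for Ripk1.

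Of 15 genes for ubiquitin editing and feedback, 14 were tested, 0 were called higher by edgeR, by DESeq2, by limma voom or at an unadjusted p below 0.05. Of the same genes 1 was lower by edgeR, against 9.65% of all tested genes, and 2 were lower by DESeq2, by limma voom and at an unadjusted p below 0.05. The gene called by edgeR was Zc3h12a, which encodes the RNase regnase that degrades inflammatory mRNAs. It was at 14.4, 15.7, 18.3 and 11.1 CPM in TG and at 39.8, 31.2, 29.9 and 23.6 CPM in WT, with no overlap. Its log2 fold change was -1.06 ± 0.17 (SE) and its edgeR adjusted p 0.00210, and it stayed called in all 8 fits with a library left out.

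Of 30 textbook NF-kB target genes, 15 were tested, 3 were lower in TG and 0 higher, with a median log2 fold change of -0.25. These 3 calls of 15 stand beside the 17.9% called over all tested genes. At an unadjusted p below 0.05, 2 were higher, DESeq2 called 1 as higher and limma voom 0. Pigr, which carries immunoglobulin A across the epithelium, was at 1343, 1386, 1655 and 968 CPM in TG and at 2649.6, 2882, 2156 and 2125 CPM in WT. The groups did not overlap, and the log2 fold change was -0.87 ± 0.16 (SE), at an edgeR adjusted p of 0.00304. Nos2, the inducible nitric oxide synthase, fell from 7.48 ± 1.46 to 3.82 ± 1.18 CPM and Duox2, an epithelial NADPH oxidase, from 64.6 ± 3.15 to 46.6 ± 9.13 CPM (SD, n = 4 each), with log2 fold changes of -0.95 ± 0.22 and -0.47 ± 0.12 (SE). All 3 stayed called in the 8 fits with a library left out, while with total counts Nos2 and Duox2 had edgeR adjusted p of 0.0597 and 0.155. The genes higher at an unadjusted p below 0.05, named after their values were seen, were Tnfaip2 and Gadd45b. Tnfaip2 was at 10.9, 10.3, 3.83 and 3.87 CPM in TG and at 2.79, 4.73, 2.87 and 2.01 CPM in WT, with WT replicate 2 above TG replicates 3 and 4. Its log2 fold change was 1.21 ± 0.41 (SE). The adjusted p was 0.0715 in edgeR, 0.0108 in DESeq2 and 0.00600 in edgeR with a replicate block. Gadd45b had a log2 fold change of 0.58 ± 0.27 (SE) and an edgeR adjusted p of 0.142. The 15 genes not tested had at most 22 counts in a library, and 6 of them, among them Cxcl2, Il1b and Il6, had 0 counts in all 8 libraries.

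Of 13 immediate early genes that cell isolation induces, 0 were called higher by edgeR, by DESeq2, by limma voom or at an unadjusted p below 0.05, and 2 were lower by edgeR and DESeq2, against 9.65% of all genes tested in edgeR, while limma voom called 1 as lower and 3 were lower at an unadjusted p below 0.05. The list had a summed level of 684 to 894 CPM in TG and 708 to 932 CPM in WT. The lower genes, Socs3 and Atf3, were named after their values were seen. Socs3, an inhibitor of cytokine signalling, was at 8.94, 6.89, 7.72 and 6.38 CPM in TG and at 59.8, 58.8, 17.6 and 17.9 CPM in WT. All TG libraries were below all WT libraries, and WT replicates 1 and 2 were above WT replicates 3 and 4, as for Bcl3. Its log2 fold change was -2.35 ± 0.53 (SE), at an edgeR adjusted p of 0.0305, and it was 1 of the 3 genes called in the interaction test (adjusted p of 0.0456 in edgeR). It stayed called in 3 of 8 fits with a library left out, with edgeR adjusted p of 0.0628 to 0.0923 in the other 5. Atf3, a stress-induced transcription factor, had a log2 fold change of -0.75 ± 0.22 (SE), at an edgeR adjusted p of 0.0286, and stayed called in 4 of 8 such fits, with 0.0541 to 0.0931 in the others, 0.130 with total counts and 0.0548 in limma voom. The 3 most abundant did not pass the test, with log2 fold changes of -0.27 ± 0.11 for Jund, 0.16 ± 0.10 for Btg2 and 0.19 ± 0.23 (SE) for Jun. Markers of other cells were read because leukocytes and stroma express NF-kB genes as well. Leukocyte markers summed to 8.81 to 30.0 CPM in TG and 12.4 to 18.7 CPM in WT, with Adgre1, Csf1r and Nkg7 among those at 0 in all libraries. Fibroblast and endothelial markers summed to 0.914 to 2.13 and 1.00 to 2.57 CPM, with Col1a2, Cdh5 and Kdr at 0. Each of these lists had 1 tested gene, Lyz2 and Vwf, and neither was called by edgeR, DESeq2 or limma voom or had an unadjusted p below 0.05.

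Markers of other epithelial cells were present. Of 11 enterocyte markers 6 were higher in TG, against 8.26% of all tested genes, and their CPM did not overlap between the groups for 6. The median log2 fold change of this list was 1.42 and 10 of the 11 had a fitted value above WT, while the summed level was 485 to 681 CPM in TG and 471 to 536 CPM in WT. The 8 goblet markers held 0 calls in edgeR, with 1 lower at an unadjusted p below 0.05 and 1 lower by limma voom, and summed to 8684 to 11988 CPM in TG and 10885 to 12656 CPM in WT. Of 6 stem cell markers 1 was higher and 1 lower, at 1915 to 2672 and 1782 to 2482 CPM. Of 8 tuft and enteroendocrine markers 5 were tested with 0 calls in edgeR and 0 at an unadjusted p below 0.05, at 15.7 to 56.4 and 26.2 to 58.0 CPM, and limma voom called 1 as lower. The part of these cells in the members' differences was not tested.

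The genes whose pattern over the 8 libraries was most like that of Bcl3 were Litaf, Lars1 and Pla2g2f, with Pearson r of log2 CPM of 0.989, 0.984 and 0.981. Litaf was at a mean of 79.3 CPM in TG and 128.8 CPM in WT, Lars1, a tRNA synthetase that did not pass the test (edgeR adjusted p = 0.140), at 88.4 and 99.8 CPM, and Pla2g2f, a secreted phospholipase, at 273.8 and 413 CPM. For Relb they were Usp27x, Rasl11b and Zfp467, with r of 0.977, 0.976 and 0.973, and mean levels of 1.04, 2.35 and 7.28 CPM in TG and 0.439, 1.18 and 4.84 CPM in WT. Of these Usp27x and Rasl11b did not pass the test, with edgeR adjusted p of 0.0540 and 0.0503. The libraries share the genotype groups, and these values describe likeness only.

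Across the settings tried, the calls of the members differed in how firmly they held. Bcl3 was called in 10 of 11 other fits, Nfkbiz in 9, Nfkbia in 8, Relb in 7 and Nfkb1 in 6. With a scaling by total counts, 1 member was higher and 1 lower, and calls over all genes shifted from 46.1% to 75.0% higher. In the libraries without Y-linked counts 2 members were lower and 0 higher, and in those with them edgeR called 0 in either direction, with 2 lower and 2 higher at an unadjusted p below 0.05. The signs of the 5 called members were the same in every setting shown in the heat map of log2 fold changes by setting.

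**Figure D4:**
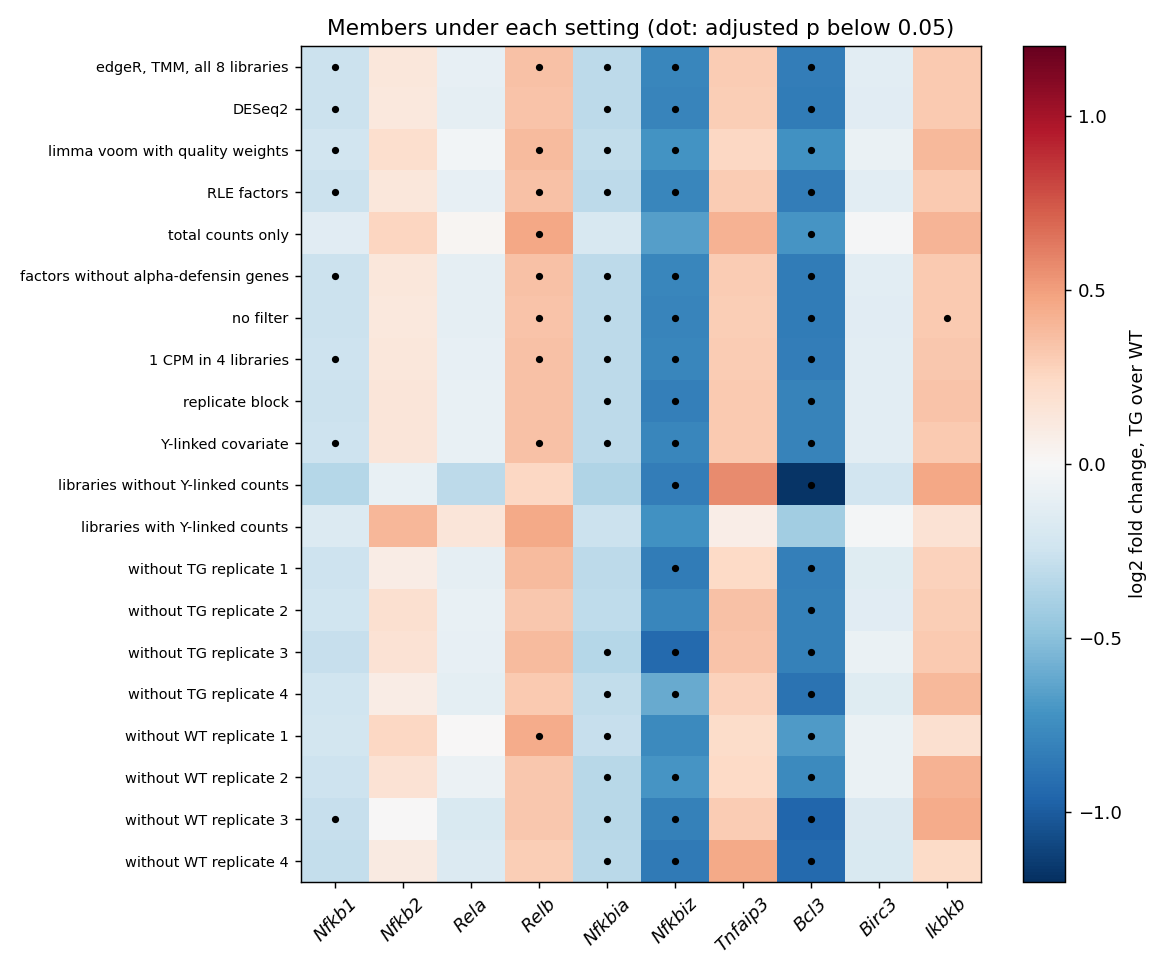
Log2 fold change (TG over WT, color) of each member in the main fit and in each alternative fit or fit with a library left out, with a dot where the adjusted p was below 0.05. Bcl3 keeps its dot in all fits but that of the libraries with Y-linked counts, while Nfkb1 and Relb lose theirs in 7 of the 8 fits with a library left out.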

How the data were processed

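The authors deposited a table of whole-number counts per Ensembl gene ID for the 8 libraries. The submitters' processing notes name STAR 2.7.0a, FastQC 0.12.0, DESeq2 and the build mm39 without roles. The study's methods describe STAR alignment with a GENCODE annotation and Salmon quantification of its reads but do not tie them to this table, so its counting tool, annotation and strand setting were taken as not stated. GENCODE M39 (GRCm39) gave symbols and positions for 54749 of 55414 IDs. The labels gave the groups and the replicate numbers. No replicates were duplicates (lowest chi-square per degree of freedom 5.20). The depth of 13107397 to 16218434 counts per library sets the precision of low genes such as Tnfaip3.

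Counts were tested with edgeR 4.0.16 in R 4.3.3 (robust quasi-likelihood fit, TMM factors, default filter by group, Benjamini-Hochberg adjustment over 11929 genes, threshold 0.05), with the group as the only term. Each SE is the log2 fold change over the square root of its F. CPM use TMM library sizes, and likeness used log2 CPM with a prior count of 2. The code was tested on simulated data. Members, gene lists and tests were chosen with earlier results of these data known.

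Named were all members, at most 5 called genes per pathway list (Rel and IkB family, kinase complexes, receptors and adaptors, ubiquitin editing and feedback, textbook targets), the 3 most abundant isolation stress genes, and the 3 genes most like the called member of smallest p in each direction. Rel, Nfkbie, Nfkbid, Birc2, Socs3, Atf3, Tnfaip2 and Gadd45b, and the genes at 0 counts, were named outside this rule after their values were seen. Alternatives were DESeq2 1.42.0, voom with quality weights in limma 3.58.1, RLE factors, total counts only, factors without alpha-defensin genes, other filters (none, or at least 1 CPM in 4 libraries), the replicate number as a block, Y-linked counts as a covariate, separate fits of the libraries that have and lack these counts, and fits without each library. Promoter windows came from a RefSeq table on GRCm38.p6.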

Additional observations from a re-analysis of the deposited data

Results flagged for a closer look

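Nfkbia was flagged for a library far from the others of its group. WT replicate 1 was at 48.8 CPM and the other WT libraries at 43.5 to 43.9 CPM, a gap of 0.927 of the whole WT range. Of 50 groups examined, 2.5 would be expected to pass by chance. Without this library Nfkbia stayed lower in TG, with an edgeR adjusted p of 0.0356. Socs3 was flagged because its difference between TG and WT itself differed between the libraries with and without Y-linked counts. The log2 fold changes were -1.32 with these counts (mean of 7.05 CPM in TG and 17.7 CPM in WT) and -2.90 without them (7.91 and 59.3 CPM). The difference between them was 1.58 ± 0.23 (SE), and the adjusted interaction p in edgeR was 0.0456.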

How the results depend on the processing

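Against 985 genes called higher and 1151 called lower in TG, fits with total counts called 787 and 263, the libraries without Y-linked counts 500 and 638, and those with them 113 and 103 (counts of calls per fit, not of shared genes), with 2 libraries a group and thus fewer degrees of freedom. Leaving out a library gave 485 to 1045 higher and 553 to 1183 lower, lowest without TG replicate 2 and TG replicate 1. Of the members, 1 higher and 4 lower became 0 and 4 with DESeq2, 2 and 3 with no filter (Ikbkb was added and Nfkb1 lost), 1 and 1 with total counts, 0 and 2 without Y-linked counts and 0 and 0 with them. With a library left out, 0 to 1 were higher and 1 to 4 lower. The lower members were 2 without TG replicate 1, 1 without TG replicate 2 and 2 without WT replicate 1. Where 0 members were higher, 1 or 2 were so at an unadjusted p below 0.05. Reversed signs belonged to genes that did not pass the test, with log2 fold changes of -0.094 for Nfkb2 without Y-linked counts, 0.14 for Rela and -0.032 for Jun with them, and for Rela 0.022 with total counts and -0.19 to 0.0067 with a library left out, the latter without WT replicate 1. The causes were not tested. Same-numbered libraries of the groups had deviations correlated at 0.08, 0.07, 0.29 and 0.23. TG replicates 3 and 4 each correlated best with the WT replicate of the same number. TG replicate 1 correlated best with WT replicate 2 (0.24) and TG replicate 2 with WT replicate 1 (0.074), so the numbers were not taken to pair the libraries. A replicate block gave 1039 genes higher and 1164 lower, and of the members 0 higher and 3 lower, with edgeR adjusted p of 0.0584 for Relb and 0.0588 for Nfkb1. Precision is limited by 4 libraries a group and, for Tnfaip3, by as few as 56 counts.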
